A study of Mus musculus with 3 samples.

Results

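Aminoacyl-tRNA synthetases are the enzymes that join each amino acid to its transfer RNA before translation. The list held 36 genes, 20 for enzymes of the cytosol and 16 for enzymes of mitochondria, whose symbols end in 2. The genes were chosen by symbol and not by their measured values, though earlier results of these data were known. Of the 36 symbols, 29 had a row among the 20574 gene symbols of the series, 16 of the cytosolic set and 13 of the mitochondrial set. The other 7, which were Aars, Farsb, Qars, Wars, Ears2, Tars2 and Wars2, were not analysed here. Total RNA of mouse peritoneal macrophages was read in 3 conditions, each represented by 1 library. The conditions were 5 h in the presence of apoptotic cells at 5 per macrophage, 5 h in LPS at 100 ng/ml, and no treatment, for which the labels give no time. LPS is a bacterial lipid that activates inflammatory signalling, and apoptotic cells that had not been engulfed were rinsed off before harvest. The title calls this uptake efferocytosis and links it to fatty acid oxidation and tissue repair. The samples are named wild type, and the labels used here give neither the strain, age or sex of the mice nor the source of the apoptotic cells.

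Most synthetases serve a single amino acid and its transfer RNAs, and the enzymes fall into class I and class II by the fold of the catalytic domain. Several cytosolic members sit together in a multi-synthetase complex, held by scaffold proteins. Mitochondria translate with a second set of enzymes encoded in the nucleus, while Gars and Kars, for glycine and lysine, supply both compartments. When amino acids are short or the endoplasmic reticulum is stressed, the transcription factor ATF4 is made in larger amounts. It raises transcription of many cytosolic synthetase genes through composite C/EBP-ATF elements.

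The letters TGATGNAA, the core of that composite element, were searched on either strand in RefSeq promoter windows of 250 bases before to 50 bases after each start (GRCm38.p6, the assembly of mm10). Windows were found for 26 of the 36 symbols, of which 20 had a row in the files. The letters were present for 4 of those 20, Gars, Iars, Tars and Yars, and in 3.97% of all 32851 windows. The stricter form TGATGCAA, which is contained in the first, was present for Iars, Tars and Yars and in 0.895% of all windows. The 30 bases around each match are shown because the ratios of these 4 genes are set beside ATF4 and its targets, with the match in capitals.
Iars, chr13:49682126-49682155, plus strand: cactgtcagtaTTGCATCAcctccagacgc
Yars, chr4:129189895-129189924, plus strand: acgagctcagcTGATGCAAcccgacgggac
Tars, chr15:11399655-11399684, minus strand: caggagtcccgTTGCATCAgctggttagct
Gars, chr6:55037960-55037989, plus strand: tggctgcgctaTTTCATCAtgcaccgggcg
Read along the gene, the Yars match is TGATGCAA, and the others are the reverse complement, TTGCATCA or, for Gars, TTTCATCA. The match began 30 bases before the start in Gars, 15 before it in Tars, 4 after it in Yars and 8 after it in Iars. Other letters were searched on either strand in the same windows. The cyclic AMP element core TGACGTCA, the AP-1 letters TGACTCA and the NF-kB-like letters GGAANTCCC were in none of the 20 genes and in 1.79%, 5.2% and 1.68% of all windows. The E-box CACGTG was present in Iars and Tars and in 7.15% of windows, and the CCAAT box in 8 of the 20 genes and in 37.4% of windows. The 250 bases before the start follow for Iars, the member with the lowest ratio to untreated cells, and for Dars, whose ratio in the same comparison, apoptotic cells against no treatment, was 1.18, with the E-box and the CCAAT box, on either strand, in capitals.
Iars, chr13:49681880-49682129, plus strand: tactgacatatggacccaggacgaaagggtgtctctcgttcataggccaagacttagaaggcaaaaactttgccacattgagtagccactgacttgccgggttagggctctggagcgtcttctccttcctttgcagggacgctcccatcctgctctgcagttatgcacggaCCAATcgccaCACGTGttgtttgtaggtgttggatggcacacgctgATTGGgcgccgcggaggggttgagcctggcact
Dars, chr1:128417417-128417666, minus strand: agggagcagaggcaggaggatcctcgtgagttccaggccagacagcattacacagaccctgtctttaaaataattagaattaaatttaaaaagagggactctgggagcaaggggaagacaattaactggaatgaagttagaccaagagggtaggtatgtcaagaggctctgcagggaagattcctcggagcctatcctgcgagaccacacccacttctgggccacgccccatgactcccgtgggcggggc
The Dars stretch held none of the letters searched. A match of letters is a description of the sequence, and binding was not measured.

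The values are FPKM, fragments scaled to transcript length and to the mapped total of the library, and they summed to 197222 after apoptotic cells, 200224 after LPS and 199881 without treatment. Steps between the lowest values imply that 1 FPKM on a transcript of 2 kb stands for about 5.97 reads after apoptotic cells, 5.52 after LPS and 6.45 without treatment, an approximate depth. Many genes were listed at exactly 0. Among genes measured in the remaining pair of libraries, the share listed at 0 was 18.6% after apoptotic cells, 21.9% after LPS and 38.6% without treatment. For the 29 synthetases the corresponding counts were 0 of 10, 2 of 12 and 13 of 23. A listed 0 can be a failed estimate, so a gene at 0 is given as listed and no ratio is formed with it. With 1 library per condition there is no p-value. Ratios carry a 95% interval for counting error alone, from the approximate reads behind each value, and biological spread was not measured. In bulk RNA, fewer cells of a type and less RNA per cell cannot be told apart.

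Cell type markers differed between the libraries, and defining macrophage markers were listed at 0 in the library labelled LPS, where a listed 0 may again be a failed estimate. Of 7 macrophage markers 3 had a row: Csf1r was at 185 FPKM after apoptotic cells and 56.3 FPKM without treatment, Cd14 at 555 and 303 FPKM, and both were listed at 0 after LPS. Fcgr1 was at 3.29, 0.377 and 0.115 FPKM after apoptotic cells, LPS and no treatment, and Emr1, Itgam, Cd68 and Lyz2 were not analysed here. T cell and thymocyte markers summed to 96.1 FPKM after apoptotic cells, with 9 of 10 above 0, to 2.21 FPKM after LPS, with 6 above 0, and to 31.0 FPKM without treatment, with 4 above 0. Their largest value was Rag1, at 41.2 FPKM after apoptotic cells and listed at 0 without treatment. Of those above 0 in both of these libraries, 3 averaged at least 1 FPKM, and 0 of the 3 were higher after apoptotic cells. Their median log2 ratio was -0.23, against -0.13 over all genes. Among them, Dntt was at 13.0 FPKM after apoptotic cells and 13.5 FPKM without treatment, and Cd4 at 1.80 and 3.48 FPKM. In the same order of libraries, mast cell markers summed to 13.8, 10.2 and 93.0 FPKM, with 5, 6 and 5 of 6 above 0, and neutrophil markers to 325, 496 and 118 FPKM, with 7, 4 and 6 of 7 above 0. B cell markers summed to 154, 117 and 86.1 FPKM, with 5, 7 and 2 of 7 above 0. These sums take a listed 0 as nothing, and the B cell markers above 0 throughout had another order, with Blnk at 38.4, 18.5 and 82.7 FPKM and Cr2 at 0.0965, 0.198 and 3.44 FPKM. The neutrophil sums were mostly Lcn2 and S100a8. After apoptotic cells, LPS and no treatment, Lcn2 was at 187, 272 and 64.1 FPKM and S100a8 at 116, 222 and 48.1 FPKM. Camp had the same order at lower values. Mmp8 had another order, at 15.98, 0.548 and 2.48 FPKM, and S100a9, Ngp and Ltf were listed at 0 after LPS. The neutrophil sums thus do not give an order for all markers of that list. With apoptotic cells Cd79a, Lck and Cpa3 were among the markers at 0. The part of these cells in the synthetase values was not tested.

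Cytosolic synthetases were expressed above their mitochondrial relatives, Lars2 and, after LPS, Iars2 apart. With apoptotic cells all 16 cytosolic genes were above 0, between 8.96 and 63.2 FPKM with a median of 20.4 FPKM. With LPS 12 of 16 were above 0, between 9.26 and 88.3 FPKM with a median of 32.1 FPKM. Without treatment only 7 were above 0, between 21.9 and 89.3 FPKM with a median of 53.4 FPKM. These medians cover different genes in each library and so do not show an order of the conditions. The mitochondrial genes above 0 numbered 11, 13 and 5 in the same libraries, with medians of 3.44, 1.80 and 6.44 FPKM. The median over all genes above 0 was 3.995 FPKM after apoptotic cells, 3.46 FPKM after LPS and 3.14 FPKM without treatment. The mitochondrial median was thus close to that of all genes after apoptotic cells, below it after LPS and above it without treatment, over different genes in each.

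**Figure D1:**
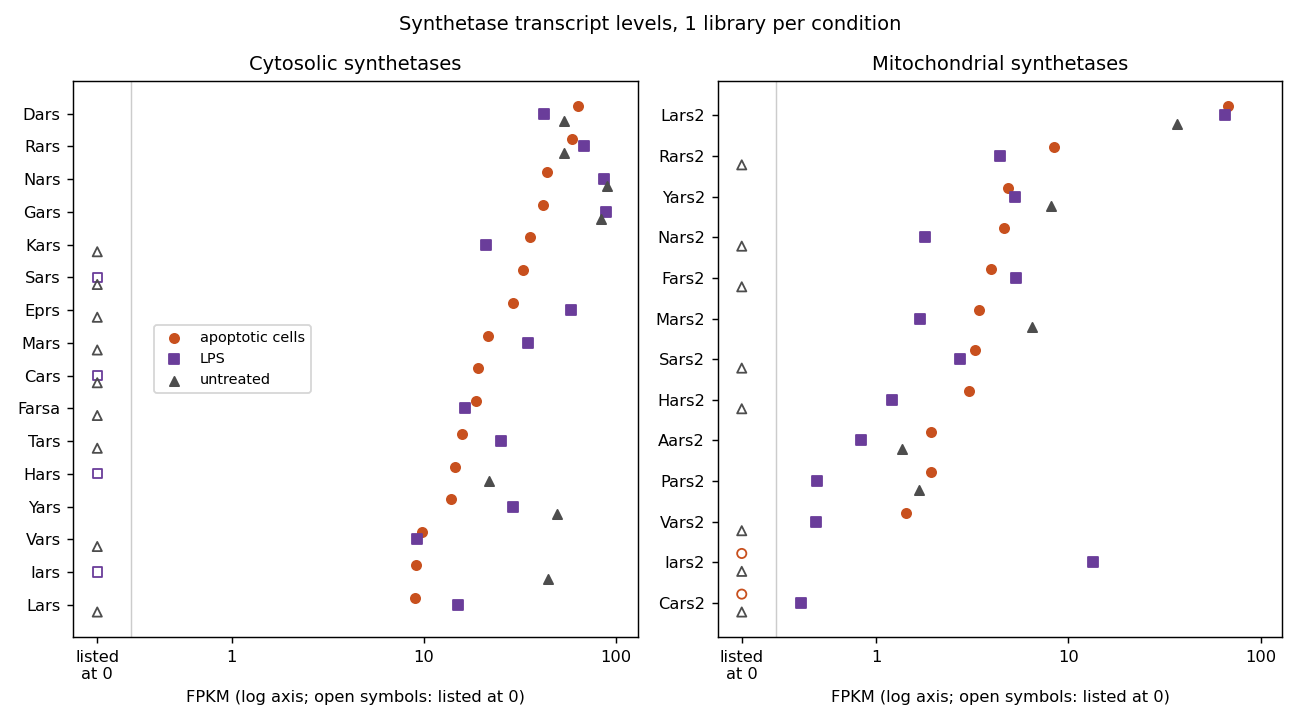
FPKM of the 29 synthetases with a row (log axis), cytosolic on the left and mitochondrial on the right, 1 symbol per library and open symbols for values listed at 0. Cytosolic genes lie between 8.96 and 89.3 FPKM wherever they are above 0, and Lars2 stands apart from the other mitochondrial genes.

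Among genes above 0 in every library, the highest levels belonged to Nars, Gars, Rars, Dars and the mitochondrial Lars2. Nars, which charges the asparagine transfer RNA, was listed at 43.7 FPKM after apoptotic cells, 86.2 FPKM after LPS and 89.3 FPKM without treatment. Gars had 41.5, 88.3 and 83.7 FPKM in the same libraries. For both genes the apoptotic-cell library was the low one, and the others lay close together. Rars, for arginine, was at 59.2 FPKM after apoptotic cells, 68.0 FPKM after LPS and 53.4 FPKM without treatment. Dars, for aspartate, was at 63.2, 42.3 and 53.7 FPKM. The order of these genes differed between libraries: after apoptotic cells Dars and Rars were the highest cytosolic members, and in the other libraries Gars and Nars were. Yars, for tyrosine, was the only other cytosolic member above 0 throughout, at 13.8 FPKM after apoptotic cells, 29.1 FPKM after LPS and 49.1 FPKM without treatment.

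The first comparison, apoptotic cells against no treatment, asks how engulfment differs from rest. Ratios could be formed for 7 cytosolic and 5 mitochondrial synthetases. Iars, Nars and Yars were 2-fold or more lower, 3 of the 12, and 0 were higher, where a fold is read on the log2(FPKM + 1) scale. In all, 3369 genes could be compared, those above 0 in both libraries and averaging 1 FPKM or more over the 3 libraries. Of these, 16.4% were 2-fold lower and 12.4% were 2-fold higher. The cytosolic median log2 ratio was -0.99, against -0.13 over all genes, and with 7 genes its interval runs across their whole range, -2.16 to 0.23. The mitochondrial median was 0.13 over 5 genes, none of them 2-fold apart.

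Iars, which charges the isoleucine transfer RNA, had 9.15 FPKM after apoptotic cells and 44.4 FPKM without treatment, from about 115 and 602 reads. That is a ratio of 0.206 (counting interval 0.168 to 0.252) and a log2 ratio of -2.16. The gene lies on chromosome 13 from 49682100 to 49734267 in mm10, and 1656 bases of its transcript are 96.0% identical to a processed pseudogene, Gm4849, so reads may be split between the copies. It was listed at 0 after LPS. Yars had 13.8 FPKM after apoptotic cells and 49.1 FPKM without, a ratio of 0.281 (0.225 to 0.346) and a log2 ratio of -1.76, and lies on chromosome 4 from 129189760 to 129219607.

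Nars and Gars sat at the 2-fold line. Nars had 43.7 FPKM after apoptotic cells and 89.3 FPKM without, a ratio of 0.489 (0.429 to 0.559) and a log2 ratio of -1.01. Gars had 41.5 and 83.7 FPKM, a ratio of 0.496 (0.427 to 0.574) and a log2 ratio of -0.99, just short of the line. Hars, for histidine, was at 14.5 FPKM after apoptotic cells and 21.9 FPKM without, a ratio of 0.662 (0.487 to 0.881). The remaining cytosolic genes were on the other side. Dars had a ratio of 1.18 (1.01 to 1.37), and Rars a ratio of 1.11 (0.950 to 1.30), whose counting interval holds 1. Counting intervals lay below 1 for 5 of the 7 cytosolic genes and above 1 for 1, against 34.0% and 27.3% of all 2965 genes with a known length.

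Of the mitochondrial genes, Lars2, for leucine, was higher, at 67.4 FPKM after apoptotic cells and 36.9 FPKM without, a ratio of 1.83 (1.62 to 2.06). It was the highest mitochondrial synthetase in each of the 3 libraries. A stretch of 72 bases of its transcript is 98.6% identical to another transcript, Gm15564, and reads there may not be unique. Mars2, for methionine, was lower, at 3.44 FPKM after apoptotic cells and 6.44 FPKM without, a ratio of 0.535 (0.424 to 0.673). Aars2 for alanine (ratio 1.41), Pars2 for proline (1.15) and Yars2 for tyrosine (0.597) rested on about 14 to 35 reads per library, and their counting intervals hold 1.

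Another 9 cytosolic genes were above 0 after apoptotic cells and listed at 0 without treatment. The 9 were Cars at 19.2 FPKM, Eprs at 29.01 FPKM, Farsa at 18.6 FPKM, Kars at 35.5 FPKM, Lars at 8.96 FPKM, Mars at 21.6 FPKM, Sars at 32.7 FPKM, Tars at 15.7 FPKM and Vars at 9.72 FPKM. All are enzymes that a translating cell uses, and Eprs, which joins glutamate and proline to their transfer RNAs, is listed at 0 in 1 library only. These zeros are therefore not read as absence. Counting them as values would turn the cytosolic median to 3.37, the opposite direction. Of the mitochondrial genes, Fars2, Hars2, Nars2, Rars2, Sars2 and Vars2 were likewise above 0 after apoptotic cells, between 1.43 and 8.44 FPKM, and listed at 0 without treatment. Cars2 and Iars2 were listed at 0 in both.

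**Figure D2:**
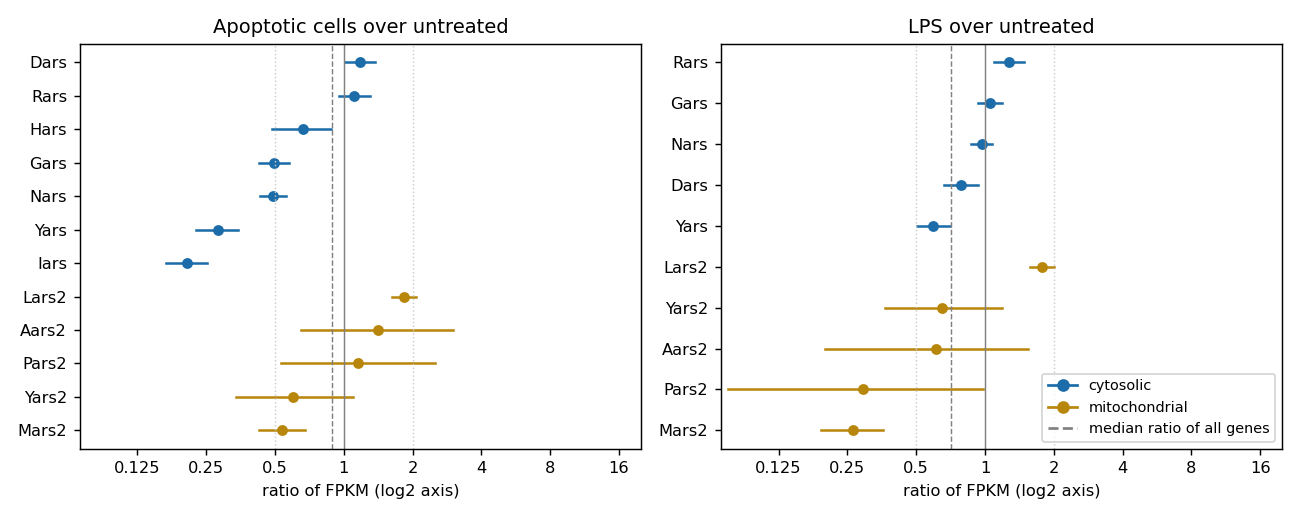
Ratio of FPKM (log2 axis) for each synthetase above 0 in both libraries, apoptotic cells over untreated on the left and LPS over untreated on the right. Bars are 95% counting intervals with no biological spread, dotted lines mark 0.5 and 2, and the dashed line is the median ratio of all genes. Iars and Yars are the lowest after apoptotic cells, at 0.206 and 0.281.

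The second comparison, LPS against no treatment, sets an inflammatory stimulus against rest and shares the untreated library with the first. Ratios could be formed for 5 cytosolic and 5 mitochondrial genes. On the log2(FPKM + 1) scale none was 2-fold higher, and 1 was 2-fold lower, Mars2. Of all genes 8.51% were higher and 26.2% lower. The cytosolic median log2 ratio was -0.05, against -0.40 over all 3421 genes, and it became 0.57 when libraries were scaled by their median ratio. That scaling moves LPS against untreated by 0.63 on the log2 scale, apoptotic cells against untreated by 0.22 and apoptotic cells against LPS by -0.41. Differences that include the LPS library are for this reason also read against the median of all genes.

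Gars stood at 88.3 FPKM after LPS and 83.7 FPKM without treatment, a ratio of 1.05 (0.936 to 1.19). Nars was at 86.2 and 89.3 FPKM, a ratio of 0.966 (0.866 to 1.08). Both counting intervals hold 1 and both lie above the median ratio of all genes, 0.710. Rars was higher after LPS, with a ratio of 1.27 (1.09 to 1.49). Dars was lower, with a ratio of 0.788 (0.664 to 0.936), with an interval that holds the median ratio of all genes. Yars had 29.1 FPKM after LPS and 49.1 FPKM without, a ratio of 0.594 (0.502 to 0.702) and a log2 ratio of -0.73.

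Of the mitochondrial genes Lars2 was higher, at 65.3 FPKM after LPS and 36.9 FPKM without, a ratio of 1.77 (1.57 to 2.01). Mars2 was at 1.70 FPKM after LPS and 6.44 FPKM without, a ratio of 0.264 (0.192 to 0.359) and a log2 ratio of -1.46. Pars2 was at 0.490 and 1.67 FPKM, from about 4 and 15 reads, a ratio of 0.293 (0.0753 to 0.979). Yars2 and Aars2 had ratios of 0.647 and 0.608 with intervals that hold 1. Counting intervals lay above 1 for Rars and Lars2 and below 1 for Dars, Yars, Mars2 and Pars2, against 19.6% and 44.5% of all 2999 genes with a known length. The mitochondrial median log2 ratio was -0.54, which is -0.14 relative to all genes. Hars and Iars were listed at 0 after LPS and above 0 without treatment. Listed at 0 without treatment and above 0 after LPS were 7 cytosolic genes, led by Eprs at 58.1 FPKM and Mars, for methionine, at 35.0 FPKM. The same held for all 8 mitochondrial genes at 0 without treatment, Iars2 being highest with 13.5 FPKM. Iars2 shares 2034 bases on the opposite strand with Rab3gap2, and the strandedness of the libraries is not given in the sources used here.

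The comparison of apoptotic cells with LPS sets the treatments against each other at a common time of 5 h, and does not involve the untreated library. It could be made for 12 cytosolic and 11 mitochondrial genes, 1 of which, Vars2, averaged under 1 FPKM and is left out of the counts. It shares the apoptotic-cell and the LPS libraries with the comparisons above and is not independent of them. The cytosolic median log2 ratio was -0.66 (interval over genes -0.98 to 0.17) and the mitochondrial median 0.70 (-0.10 to 0.97), against 0.32 over all 4599 genes. Relative to all genes these are -0.97 and 0.38. With apoptotic cells 2 synthetases were 2-fold lower, Gars and Yars, and 1 was 2-fold higher, Nars2, where 5.54% of all genes were lower and 15.7% higher. These calls use the log2(FPKM + 1) scale, so genes at low levels with a plain ratio above 2, such as Pars2 at 3.93, are not called. Scaling by the median of ratios made these counts 7 lower and 0 higher, where 9.73% of all genes were lower and 9.04% higher. Upper-quartile scaling made them 4 lower and 0 higher, where 6.63% and 13.1% of all genes were. The call of Nars2 was thus lost under both.

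Among the cytosolic genes, 4 stood close together near a ratio of 0.5. Gars had 41.5 FPKM after apoptotic cells and 88.3 FPKM after LPS, a ratio of 0.470 (0.404 to 0.546) and a log2 ratio of -1.07. Yars had 13.8 and 29.1 FPKM, a ratio of 0.473 (0.371 to 0.595) and a log2 ratio of -1.03. Eprs had 29.01 and 58.1 FPKM (ratio 0.499, interval 0.441 to 0.564), and Nars 43.7 and 86.2 FPKM (ratio 0.507, interval 0.442 to 0.581). On the log2(FPKM + 1) scale Eprs and Nars thus lay just inside the 2-fold line, at -0.98 and -0.97. Gars and Yars were just beyond it. A second cluster lay near 0.6 and held Lars, the leucine enzyme and leucine sensor of the mTORC1 pathway, at 8.96 against 15.1 FPKM (ratio 0.595), Mars at 21.6 against 35.0 FPKM (0.617) and Tars, for threonine, at 15.7 against 25.2 FPKM (0.624). For these 7 genes the counting interval lay below 1.

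Kars and Dars went the other way. Kars, which also serves mitochondria, had 35.5 FPKM after apoptotic cells and 21.1 FPKM after LPS, a ratio of 1.68 (1.34 to 2.14). Dars had 63.2 and 42.3 FPKM, a ratio of 1.49 (1.26 to 1.77), whose interval holds the median ratio of all genes, 1.31. Farsa, the catalytic subunit of the phenylalanine enzyme, Vars for valine and Rars had ratios of 1.13, 1.05 and 0.870 with intervals that hold 1. Counting intervals thus lay below 1 for 7 of 12 cytosolic genes and above 1 for 2, against 13.1% and 37.8% of all 4082 genes with a known length. Cars, Hars, Iars and Sars were above 0 after apoptotic cells and listed at 0 after LPS, Sars at 32.7 FPKM.

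**Figure D3:**
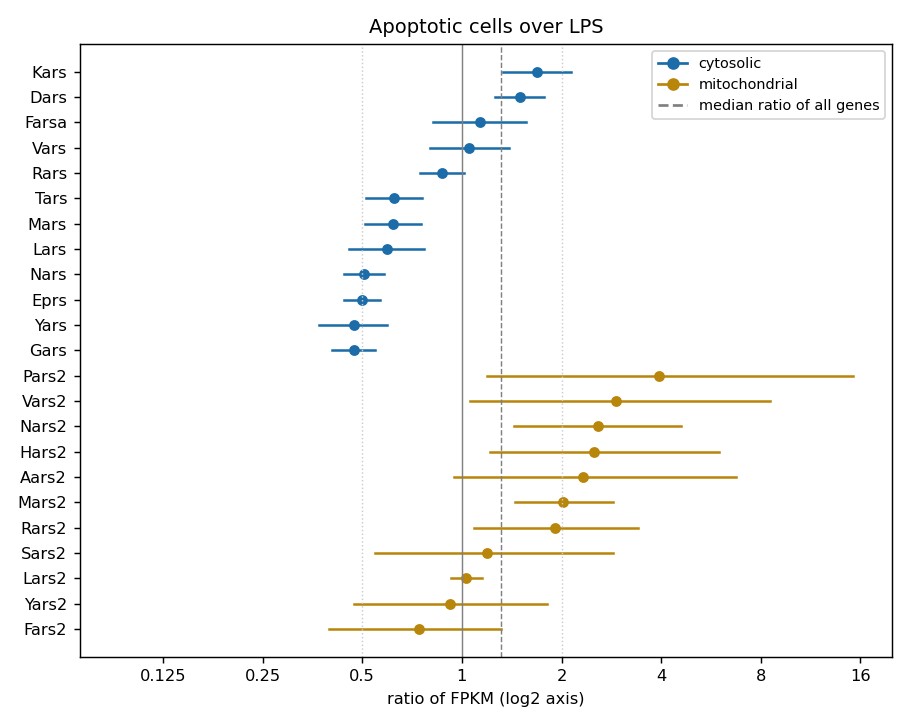
Ratio of FPKM after apoptotic cells over LPS (log2 axis) for each synthetase above 0 in both libraries, Vars2 included. Bars are 95% counting intervals with no biological spread, dotted lines mark 0.5 and 2, and the dashed line is the median ratio of all genes, 1.31. Of the 12 cytosolic genes 7 lie below 1 with their whole interval and no mitochondrial gene does, against 13.1% of all genes. The interval of the mitochondrial Lars2 lies wholly below the dashed line.

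Members of the multi-synthetase complex differed in direction. Of its 6 genes with a ratio between apoptotic cells and LPS, Kars and Dars were higher, Eprs, Lars and Mars were lower, and the interval of Rars holds 1. Against the median ratio of all genes, 1.31, Kars alone lay above. Eprs, Lars, Mars and Rars lay below it, and the interval of Dars holds it. Of its scaffold genes, Aimp1 was at 28.9 FPKM after apoptotic cells, 21.8 FPKM after LPS and 39.2 FPKM without treatment, and Eef1e1 at 21.4, 35.6 and 21.7 FPKM. Aimp2 was above 0 only after apoptotic cells, at 19.2 FPKM. Neither Aimp1 nor Eef1e1 was 2-fold apart in any comparison as deposited. By structural class, the medians for apoptotic cells against LPS were -0.67 over 5 class I genes and -0.24 over 6 class II genes, Eprs, which carries one of each, being left out.

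The mitochondrial genes rested on low read numbers. Their median interval holds the median of all genes, 0.32, and with a mean of at least 5 FPKM the median was -0.03 over 2 genes. Nars2, for asparagine, had 4.64 FPKM after apoptotic cells and 1.80 FPKM after LPS, a ratio of 2.57 (1.44 to 4.59) and a log2 ratio of 1.01. Pars2 had 1.93 and 0.490 FPKM (ratio 3.93, interval 1.19 to 15.2), and Hars2, for histidine, 3.03 and 1.20 FPKM (2.51, 1.22 to 5.97). Mars2 had 3.44 and 1.70 FPKM (2.03, 1.45 to 2.87), and Rars2, for arginine, 8.44 and 4.41 FPKM (1.91, 1.08 to 3.41). These 5 of 10 intervals lay above 1 and 0 lay below it, while 37.8% of all genes had an interval above 1. Against the median of all genes only those of Mars2 and Nars2 stayed above. The Mars2 interval assumes a transcript of 11294 bases, by which its reads came to about 114 and 52. Lars2 was at 67.4 and 65.3 FPKM (1.03, 0.928 to 1.15), an interval that holds 1 and lies below the median ratio of all genes, 1.31. Likewise Sars2 for serine, Yars2 and Fars2 for phenylalanine had intervals that hold 1. Vars2, for valine, was at 1.43 and 0.489 FPKM. Hars2 and Hars overlap at their first 195 bases on opposite strands, and Nars2 shares 284 bases with an antisense transcript, so their values are less certain.

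Where the same amino acid has an enzyme in each compartment and both genes were measured, the pair was set side by side. This was possible for 7 amino acids between apoptotic cells and LPS. Nars was lower after apoptotic cells than after LPS, at 43.7 against 86.2 FPKM, and Nars2 higher, at 4.64 against 1.80 FPKM. Mars and Mars2 were ordered likewise, with ratios of 0.617 (0.509 to 0.752) and 2.03 (1.45 to 2.87). Rars had a ratio of 0.870 (0.748 to 1.02) and Rars2 one of 1.91 (1.08 to 3.41), and Lars at 0.595 (0.456 to 0.766) stood below Lars2 at 1.03 (0.928 to 1.15). In these 4 pairs the counting intervals do not overlap. In the others they do, with ratios of 0.473 for Yars and 0.923 for Yars2, 1.05 for Vars and 2.93 for Vars2, and 1.13 for Farsa and 0.743 for Fars2. The mitochondrial gene thus had the higher ratio in 6 pairs and the cytosolic gene in 1, that of phenylalanine. Against no treatment only the tyrosine pair could be formed. After apoptotic cells the ratios were 0.281 (0.225 to 0.346) for Yars and 0.597 (0.338 to 1.10) for Yars2, and after LPS 0.594 (0.502 to 0.702) and 0.647 (0.366 to 1.19), with overlapping intervals in both.

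Other factors of mitochondrial translation were described from lists chosen by function. The elongation and initiation list had 5 of 6 genes above 0 after apoptotic cells and after LPS. Between those libraries its median log2 ratio was 0.59, against 0.32 over all genes, and none was 2-fold apart. Tufm, which brings charged transfer RNA to the mitochondrial ribosome, was at 54.7 FPKM after apoptotic cells, 36.0 FPKM after LPS and 36.7 FPKM without treatment. Tsfm, its exchange factor, was at 13.3, 6.28 and 8.999 FPKM. Between apoptotic cells and LPS, where all genes had a median of 0.32, genes that complete or start mitochondrial charging had one of 0.70. It covers 3 of 4, among them Qrsl1 and Gatc, subunits of the amidotransferase that makes the glutamine transfer RNA. The median of these charging genes against no treatment, over 2 genes, was -0.26 after apoptotic cells and -0.75 after LPS. That of all genes was -0.13 and -0.40.

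Several genes that edit mischarged or recycle stalled transfer RNA were lower after LPS. Against no treatment 3 of 4 with a ratio were 2-fold lower after LPS, Dtd1 (1.48 against 7.32 FPKM), Aarsd1 (4.201 against 12.9 FPKM) and Prorsd1 (3.64 against 9.13 FPKM), where 26.2% of all genes were. Their log2 ratios were -1.75, -1.41 and -1.13, and scaling by the median of ratios shifts this comparison by 0.63, more than Aarsd1 and Prorsd1 lie past the 2-fold line. With apoptotic cells 0 of 4 were 2-fold apart from no treatment, with Dtd1 at 4.64 FPKM and Aarsd1 at 9.31 FPKM. Dtd1 removes D-amino acids from transfer RNA, and Aarsd1 and Prorsd1 are related to editing domains of the alanine and proline enzymes. Between apoptotic cells and LPS the median was 0.98 over 5 genes, against 0.32 over all genes. Of the 5, 1 was 2-fold higher, where 15.7% of all genes were. In the list of transfer RNA end processing and RNase P, 2 of 8 were 2-fold higher after apoptotic cells than after LPS, led by Pop5 at 20.9 against 3.02 FPKM, a share near the 15.7% of all genes, and the median was 0.03.

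Atf4 itself was low in the same library as Gars and Nars. It stood at 64.8 FPKM after apoptotic cells, 240.0 FPKM after LPS and 245.0 FPKM without treatment. On the list of ATF4 and its targets, 7 of 11 genes were 2-fold lower after apoptotic cells than without treatment and 0 higher, against 16.4% and 12.4% of all genes, with a median of -1.90 against -0.13. Between apoptotic cells and LPS 9 of 13 were 2-fold lower and 0 higher, against 5.54% and 15.7% of all genes, with a median of -1.55 against 0.32. Between LPS and no treatment 1 of 12 was lower and 2 higher, against 26.2% and 8.51% of all genes, with a median of 0.40 against -0.40. Mthfd2, a mitochondrial one-carbon enzyme on that list, was at 21.9, 116 and 91.9 FPKM after apoptotic cells, LPS and no treatment. The synthetases with the TGATGNAA letters shown above were lower after apoptotic cells in each ratio that could be formed. Iars, Yars and Gars had log2 ratios of -2.16, -1.76 and -0.99 against no treatment, and Gars, Yars and Tars of -1.07, -1.03 and -0.65 against LPS. Cytosolic genes with a promoter window but without those letters had log2 ratios against LPS of 0.57 for Dars, -0.98 for Eprs, 0.17 for Farsa and 0.72 for Kars. Lars, Mars, Nars, Rars and Vars had no window. Against no treatment, the cytosolic genes other than Iars, Yars and Gars had log2 ratios of 0.23 (Dars), 0.15 (Rars), -0.56 (Hars) and -1.01 (Nars). Between LPS and no treatment the log2 ratio was -0.73 for Yars, 0.08 for Gars and -0.03 for Atf4. Whether ATF4 sets these levels was not tested.

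**Figure D4:**
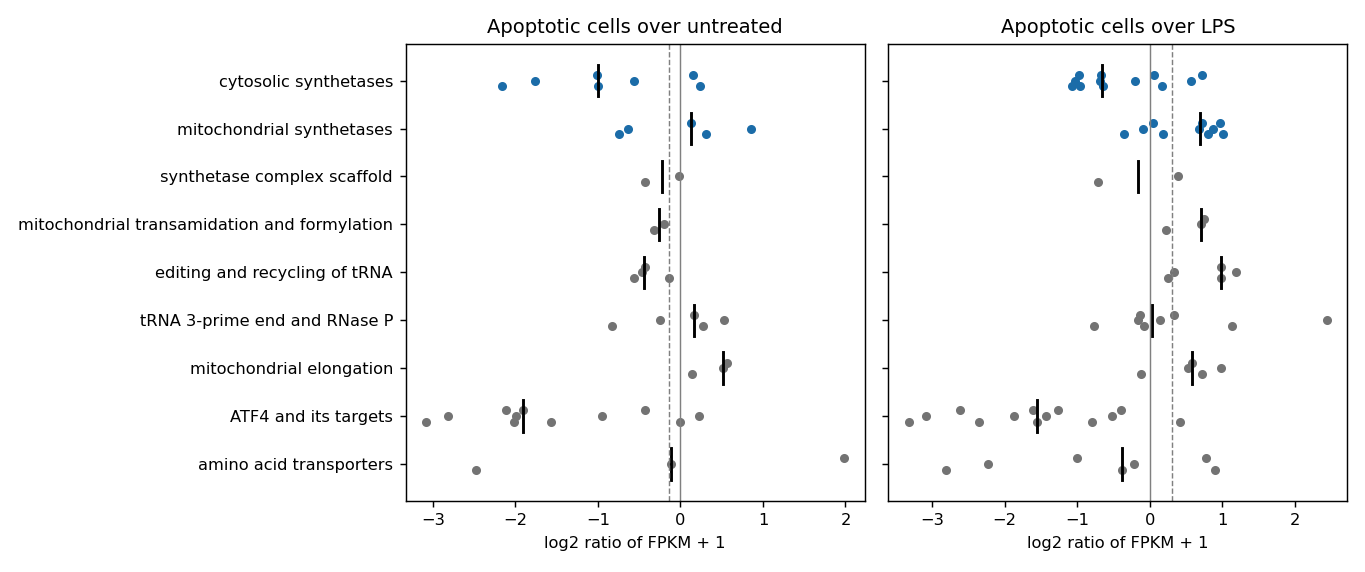
Log2 ratio of FPKM + 1 for each gene of the synthetase lists (blue) and of related lists (grey), apoptotic cells over untreated on the left and over LPS on the right. Black bars are list medians and the dashed line is the median of all genes. Among the lists drawn, ATF4 and its targets have medians of -1.90 and -1.55, and the cytosolic synthetases -0.99 and -0.66.

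Amino acid import genes went in different directions. Slc7a1, the carrier of arginine and lysine, was at 7.02 FPKM after apoptotic cells, 55.3 FPKM after LPS and 43.7 FPKM without treatment. Slc3a2, the shared heavy chain of several exchangers, was at 191, 896 and 207 FPKM, high after LPS alone. Slc7a8 was highest after apoptotic cells, at 28.5, 14.8 and 6.47 FPKM. Slc7a5, the leucine exchanger, was above 0 only after apoptotic cells, at 13.0 FPKM. Between apoptotic cells and LPS 2 of 7 were 2-fold lower and 0 higher, against 5.54% and 15.7% of all genes.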

How the data were processed

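Each of the 3 libraries has a deposited table of 1 value per gene symbol. The values were taken as FPKM made by the authors: no unit is written, but Cufflinks 2.2.1 and Cuffdiff appear in the submitters' processing notes, beside TopHat2 2.1.0, cutadapt 1.14 and mm10, and the smallest steps scale with transcript length. Options, annotation and strandedness: not given in the sources used here.

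Ratios were formed between libraries above 0 in both, as plain ratios and as log2((FPKM + 1)/(FPKM + 1)), with counts and medians over genes of mean at least 1 FPKM. With 1 library per condition no test was run. The FPKM worth of 1 read on 1 kb was fitted from genes with 1 GENCODE M21 transcript, with 225 bases taken off each length: 0.335 after apoptotic cells, 0.3625 after LPS and 0.310 without treatment. The fit chose the step that best brought the values to whole read numbers, so the share near them is no separate check. Only 29.5% to 34.5% of these values lay within 0.1 of a whole read number, where an even spread with no such choice gives 20%, so reads are approximate. They were converted with the longest RefSeq-matched coding transcript, and exact binomial 95% intervals cover counting error only. Medians have distribution-free binomial intervals over genes, from 6 genes on.

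Coordinates are from GENCODE M21, promoters from RefSeq, and transcripts sharing at least 70 bases at 95% identity were found with blastn 2.17.0. Python 3.11.15, pandas 2.3.3 and scipy 1.17.1 were used. The ratio step was tested on simulated data modelled on genes above 0 in every library, and the other steps were not simulated. Of the synthetases with a row, all are named in the text. For other lists, up to 4 genes with the largest ratios or a stated role are named, some after their values were seen. Members and lists were chosen with earlier results of these data known.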

Additional observations from a re-analysis of the deposited data

How the results depend on the processing

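No paired analysis was possible because each condition has 1 library, and for the same reason none was left out. The alternatives, all planned, gave 108 values, of which 32 moved and 5 reversed. The other 71 lay within the interval of the median over genes, or within 0.3 where there is none, or within 1.5 times the count. Since those intervals are wide, some of the 71 still differ: the mitochondrial median of apoptotic cells against LPS was -0.03 (0.70) under the stricter mean of 5 FPKM, which left 2 genes, the cytosolic one -0.07 with a listed 0 as a value (-0.66), and the cytosolic median of LPS against untreated 0.12 under upper-quartile scaling (-0.05). Each is a count of synthetases past 2-fold or a median log2 ratio, and the cause of a difference was not tested.

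Taking a listed 0 as a value reversed the cytosolic medians, to 3.37 for apoptotic cells against untreated (-0.99) and 1.85 for LPS against untreated (-0.05). It also moved the mitochondrial medians, to 1.43 and, reversed, 1.1405 (0.13 and -0.54). Counts past 2-fold then were 14 higher of 26 for apoptotic cells against untreated, where 41.4% of all genes were. They were 13 higher and 3 lower of 25 for LPS against untreated, where 39.6% and 25.5% were. For apoptotic cells against LPS 5 of 27 were higher, where 25.5% were.

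Scaling by the median of ratios gave cytosolic medians of 0.57, reversed, for LPS against untreated and -1.05 for apoptotic cells against LPS, and a mitochondrial median of -0.048 for LPS against untreated. It called 1 higher for apoptotic cells against untreated, where 16.1% of all genes were. For LPS against untreated it called 1 higher and 0 lower, where 19.1% and 12.8% were. For apoptotic cells against LPS it called 0 higher and 7 lower, where 9.04% and 9.73% were. Upper-quartile scaling called 0 higher and 4 lower in the last comparison, where 13.1% and 6.63% were.

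A mean of at least 5 FPKM left 2 mitochondrial genes for LPS against untreated, with a median of 0.13, reversed. It called 0 lower there and 0 higher for apoptotic cells against LPS, as did genes above 0 in all 3 libraries in that comparison. A pseudocount of 0.1 called 2 lower for LPS against untreated (33.1% of all genes) and 4 higher for apoptotic cells against LPS (22.7%). A pseudocount of 5 called 0 lower for LPS against untreated (9.38% of all genes). It called 0 higher (6.04%) and 1 lower (3.37%) for apoptotic cells against LPS. A 1.5-fold line gave 1 higher and 6 lower for apoptotic cells against untreated, where 22.1% and 30.3% of all genes were. It gave 1 higher and 3 lower for LPS against untreated, where 15.9% and 42.7% were. For apoptotic cells against LPS it gave 7 higher and 7 lower, where 33.4% and 10.8% were. A 4-fold line gave 1 lower for apoptotic cells against untreated (4.24% of all genes) and 0 lower for LPS against untreated (5.67%). It gave 0 higher (3.22%) and 0 lower (1.96%) for apoptotic cells against LPS.

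Depth limits the mitochondrial genes most: Pars2 rests on about 16 reads after apoptotic cells, 4 after LPS and 15 without treatment. Of the 10 compared between apoptotic cells and LPS, 5 have a counting interval above 1, against 37.8% of all genes with a known length. Against the median ratio of all genes only Mars2 and Nars2 stay above.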

Other observations

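Tarsl2, a relative of the cytosolic threonine enzyme that was outside the list, was looked up after the other values were seen. It was listed at 1.37 FPKM after apoptotic cells, at 0.400 FPKM after LPS and at 2.199 FPKM without treatment. Its ratio between LPS and no treatment was 0.182 (counting interval 0.0319 to 0.559), from about 3 and 21 reads.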
